A study of Mus musculus with 4 samples.

Results

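Autophagy, mitophagy and lysosome genes were followed in RNA from mouse quadriceps, the large muscle of the thigh. The members are 33 genes chosen by symbol from textbook knowledge of the pathway, out of 55573 gene IDs in the count files. The rule holds no measured value, but earlier results of these data were known when the members were chosen. All 33 matched a gene and all 33 passed the filter on low counts, which left 13076 genes for testing. Counts behind single member values ran from 53 to 5549 reads per library.

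The study sequenced 4 libraries at 7 weeks of age. WT muscle came from C57BL/6J mice, and knockout muscle (genotype vdr-/-) from the stock B6.129S4-Vdrtm1Mbd/J, whose germline allele removes part of the vitamin D receptor gene, Vdr, in every tissue and not in muscle alone. Both groups had regular chow. The labels number 2 libraries in each group, do not say whether they came from separate animals or from pools, and do not call the WT mice littermates. P-values therefore set the difference between groups against a spread of libraries within a group. That spread is estimated for each gene with information shared across all tested genes, and it can be technical. The comparison asks how expression in muscle differs without the receptor.

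Macroautophagy is the route by which a cell wraps cytoplasm, protein aggregates or whole organelles in a double membrane and delivers them to lysosomes. A protein kinase and a lipid kinase complex start the membrane, a pair of ubiquitin-like conjugation systems attach proteins of the ATG8 family (LC3 and GABARAP) to it, and cargo receptors that bind ATG8 proteins bring in the load. In skeletal muscle the route is known for its activity in fasting and denervation and for the removal of damaged mitochondria, called mitophagy. TFEB and TFE3 are transcription factors that enter the nucleus when nutrient signalling falls and bind the CLEAR element found before many lysosomal genes.

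Total counts per library ran from 10789025 to 21336982 reads, of which 43.3% to 47.8% came from mitochondrially encoded genes. Values are CPM, counts per 1000000 reads of the library with edgeR's TMM scaling, and levels compared between genes are CPM per kilobase of merged exons. Vdr counts were 5 and 0 for WT against 5 and 1 for the knockout, too few reads, so the gene does not check the labels. Markers of fast muscle fibres such as Myh4 and Ckm were abundant in every library. Of skeletal muscle fibre markers 0 of 8 were called, beside 2.03% of all tested genes. The same was so for 0 of 5 each of endothelial cells, fibroblasts and tendon cells. These counts do not show that cell content was alike. Most fibre, endothelial and tendon-cell markers were lower in the knockout, as given further on. Xist, the RNA of the silenced X chromosome in female cells, had 1929 and 2778 reads in the WT libraries against 0 and 3 reads for the knockout, and Y-linked Ddx3y had 50 and 0 against 1594 and 739. Genotype and sex cannot be told apart here, and 2 members, Tfe3 and Lamp2, are X-linked. Of 10 fat-cell markers 9 were called higher in the knockout, with summed levels of 1093 and 1303 CPM for WT against 4540 and 4130 CPM in the knockout. In whole muscle, fewer cells of a type and less RNA per cell cannot be told apart.

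Promoter sequence is shown first because the CLEAR element is a feature that ties lysosomal members to TFEB and TFE3. The element is known from many lysosomal genes. Its share among members picked from textbook knowledge is therefore a description and not an independent result. RefSeq promoters on GRCm38.p6, 250 bases before to 50 after a gene's start, were found for 27 of the 33 members and searched on both strands. The 7-base CLEAR core TCACGTG was found in 8 of the 27 members (29.6%), in 20 of 102 other genes of the pathway (19.6%) and in 4.29% of all 27025 genes in the promoter table. The 8 members were Lamp1, Mcoln1, Ctsd, Atp6v1a, Atp6v0d1, Atg3, Atg7 and Atg14. Lamp1 had 4 separate matches, and Mcoln1, Atg3 and Ctsd had 2 each. The shorter E-box core CACGTG, which lies within the CLEAR core, was found in 11 of the 27 (40.7%; 8.09% of all genes), and Bnip3, Atg5 and Ctsl are the 3 members that hold it without the longer core. None of the 27 held the full CLEAR palindrome, the core with G before it and AC after it (0.37% of all genes), the FOXO site GTAAACA (4.05%) or the vitamin D receptor's direct repeat, AGGTCA repeated with NNN between the copies (0.0074%). These are letter matches within one window and not measured binding. The windows below are written 5′ to 3′ on the gene's strand and carry the CLEAR core in capitals (the E-box core for Bnip3). They lie before the RefSeq start and outside every GENCODE M21 exon, the windows of Lamp1, Atg3 and Bnip3 before the gene and those of Atp6v1a and Atg7 in an intron of a longer transcript. Lamp1 is shown for its 4 matches, Atp6v1a, Atg3 and Atg7 for matches in a pump subunit and in conjugation genes, and Bnip3 for the values described further on.
Lamp1, chr8:13159096-13159155, plus strand: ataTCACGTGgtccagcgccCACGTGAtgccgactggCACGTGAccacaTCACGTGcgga
Atp6v1a, chr16:44139350-44139409, minus strand: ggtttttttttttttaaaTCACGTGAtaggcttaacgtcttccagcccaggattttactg
Atg3, chr16:45158714-45158773, plus strand: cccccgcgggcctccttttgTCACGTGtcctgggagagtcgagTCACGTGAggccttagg
Atg7, chr6:114670936-114670995, plus strand: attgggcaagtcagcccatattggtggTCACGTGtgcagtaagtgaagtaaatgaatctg
Bnip3, chr7:138909577-138909636, minus strand: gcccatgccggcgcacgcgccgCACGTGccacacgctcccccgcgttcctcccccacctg

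**Figure D1:**
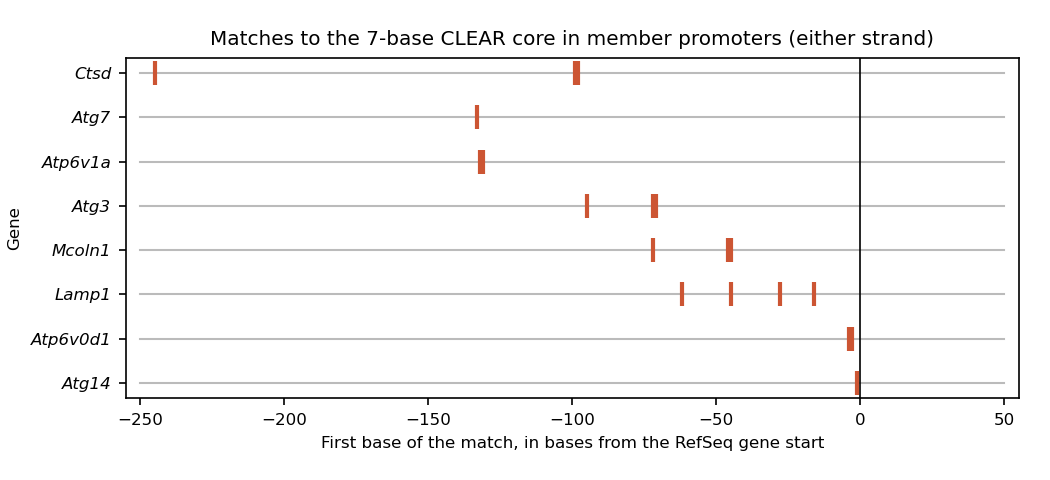
Positions of the 7-base CLEAR core in the promoters of the 8 members that hold it, in bases from the RefSeq gene start (x axis), 1 row per gene. Red marks show the first base of each match on either strand, and a thick mark is a palindromic match found on both strands; Lamp1 has 4 separate matches within 62 bases of its start.

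Levels per kilobase differed 108-fold between the most and the least abundant member. Pink1, the kinase that marks damaged mitochondria for removal, was highest, at 109.5, 89.5, 81.3 and 93.7 CPM per kilobase in WT replicates 1 and 2 and knockout replicates 1 and 2. Lamp1, the main glycoprotein of the lysosomal membrane, followed at 73.3, 72.6, 73.2 and 68.1. Next came the cargo receptor gene Sqstm1 (mean 66.3) and the ATG8 gene Map1lc3a (53.9). No library of Pink1 overlapped with one of Lamp1. Ranges of the libraries overlapped between Lamp1 and Sqstm1 and between Sqstm1 and Map1lc3a, so that order is within the spread. The protease gene Ctsd (50.2), Bnip3 (42.6), Gabarap (39.1) and Ctsb (39.0) came after them, each overlapping with its neighbour. At the low end were Atg14 (1.44), Atg16l1 (1.44), the lysosomal calcium channel gene Mcoln1 (1.32), Atg7 (0.925) and Tfe3 (0.865). Genes of cargo receptors other than Optn (7.71), of ATG8 proteins, of Lamp1 and of the cathepsins had higher means than those of initiation, membrane supply, conjugation and the transcription factors, of which the highest was Ulk2 (8.88). Merged exons count every annotated isoform, which lowers the value of genes with long rare exons.

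**Figure D2:**
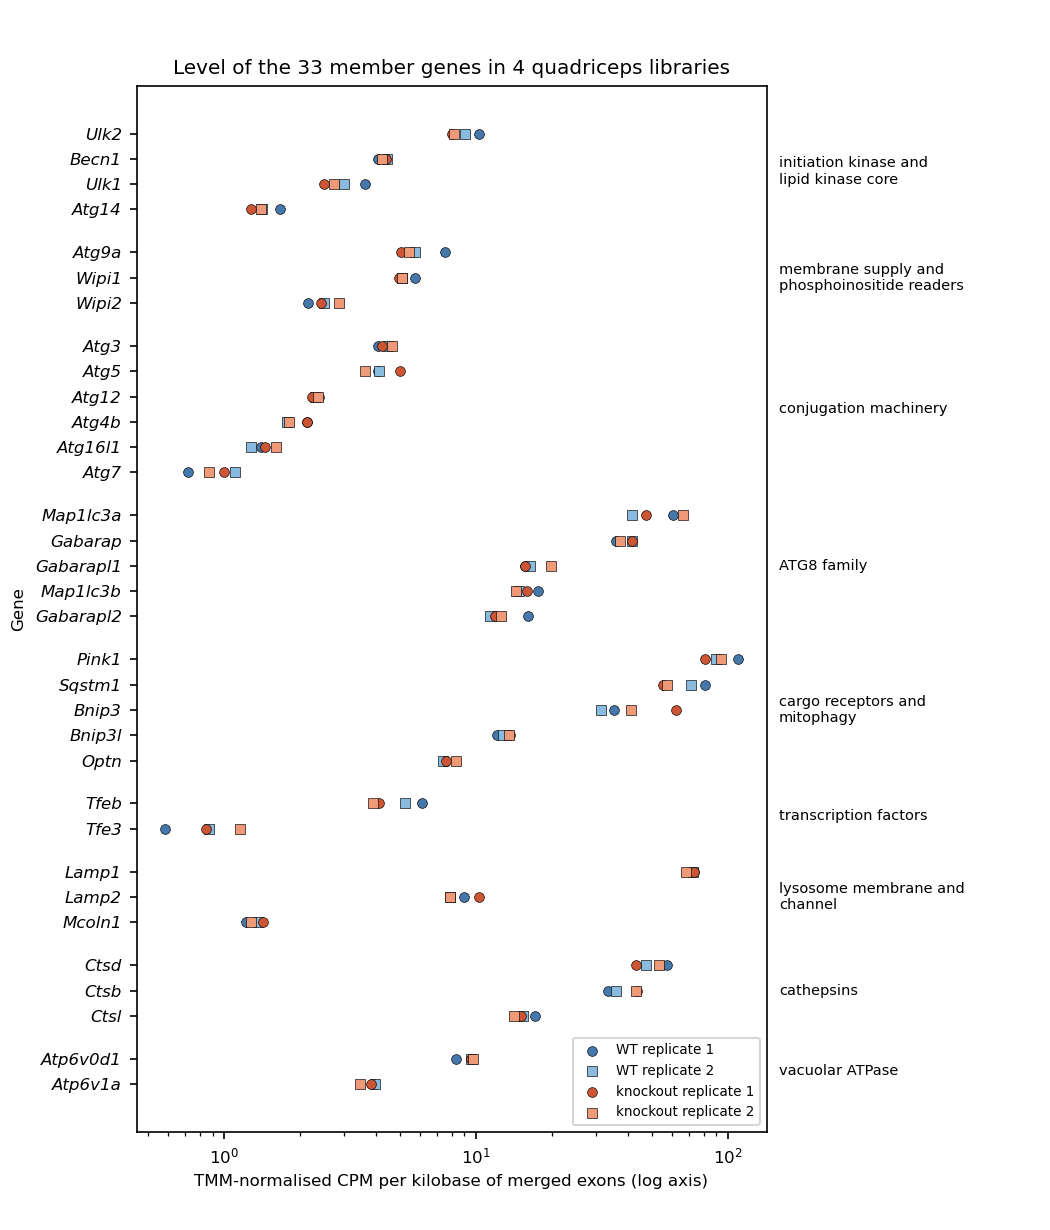
Level of each member in the 4 libraries, as TMM-normalised CPM per kilobase of merged exons on a log axis, grouped by role. Points are single libraries (blue WT, red knockout; circles replicate 1, squares replicate 2); Pink1 is highest and Tfe3 lowest.

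No member was called between knockout and WT. With edgeR's quasi-likelihood test and Benjamini-Hochberg adjustment over all 13076 genes, a call being an adjusted p below 0.05, 0 of 33 members passed, beside 2.03% of all tested genes (1.61% higher and 0.413% lower). The smallest adjusted p among members was 0.115 and the largest 0.977. At an unadjusted p below 0.05 there were 6 members (Tfeb, Sqstm1, Bnip3, Ctsb, Ulk1 and Atg9a), or 2 higher and 4 lower, where the same threshold took 14% of all tested genes (8.08% higher and 5.9% lower). DESeq2 called 2 members (Bnip3 higher and Sqstm1 lower), beside 2.71% of the 11063 genes to which it gave an adjusted p.

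The members' differences were centred near 0. Their median log2 fold change, knockout over WT, was 0.02, with 18 positive and 15 negative, and the median of all tested genes was -0.0007. The members' median turned negative when any 1 library was left out, at -0.09 without knockout replicate 1, -0.05 without WT replicate 2, -0.01 without knockout replicate 2 and -0.0007 without WT replicate 1. Values ran from -0.49 for Tfeb to 0.64 for Bnip3. Both knockout libraries lay above both WT libraries for 6 members and below both for 9, together 15 of 33, and the groups did not overlap for 44.7% of all tested genes (23% higher and 21.7% lower). The 95% interval of the log2 fold change stayed within a 2-fold change either way for 32 of 33 members, Bnip3 being the exception. The same was so for 74.6% of all tested genes and for 93.1% of the 7855 genes with a mean CPM in the members' range. Half-widths of these intervals had a median of 0.33 on the log2 scale.

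**Figure D3:**
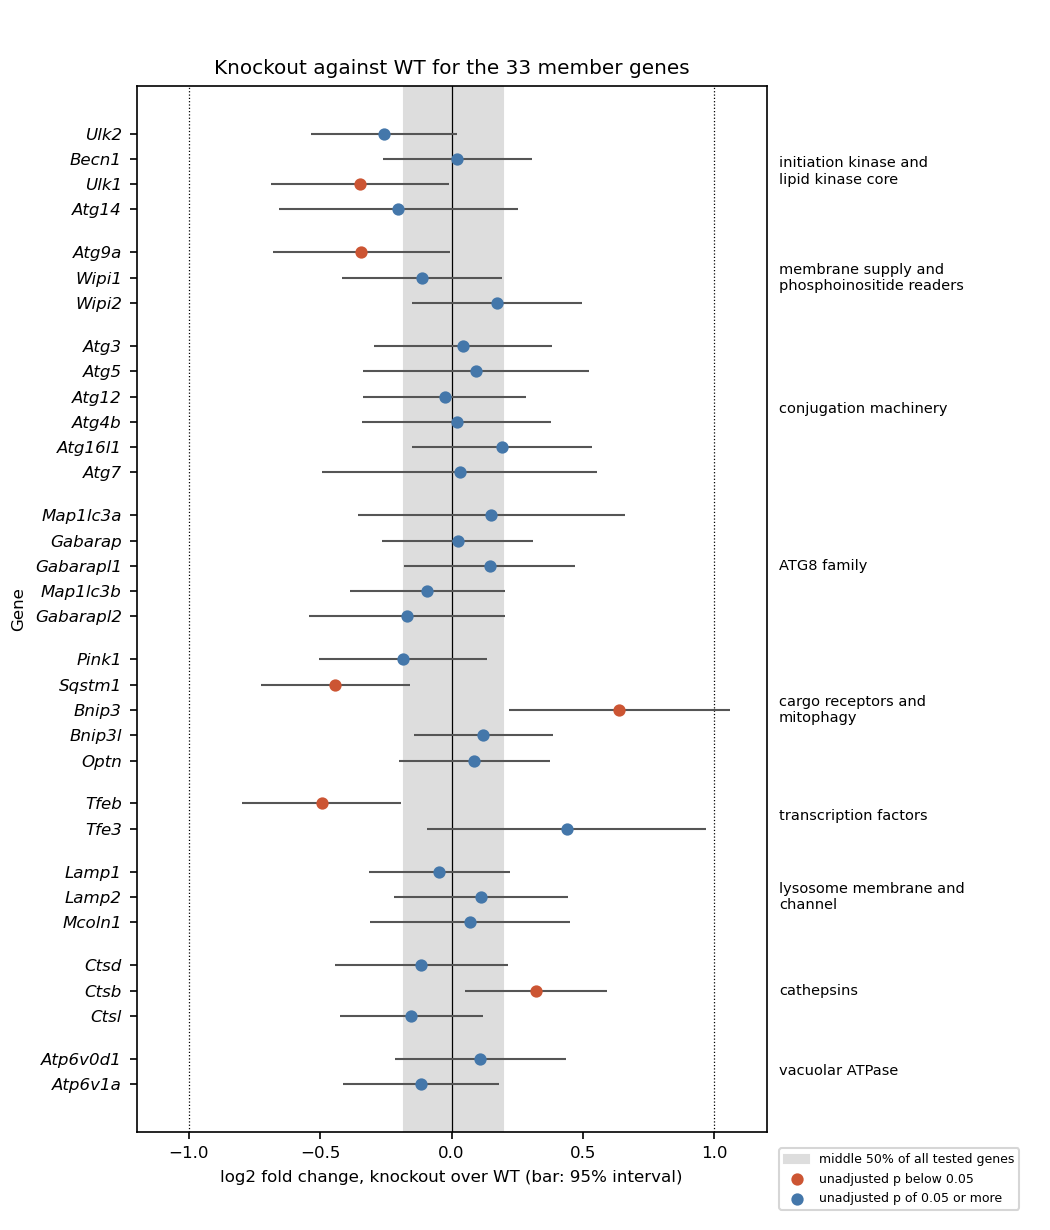
Log2 fold change of each member, knockout over WT, with its 95% interval (x axis), grouped by role; dotted lines mark a 2-fold change and the grey band the middle 50% of all tested genes. Red points have an unadjusted p below 0.05; the interval of Bnip3 alone crosses a dotted line.

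Among the genes that start autophagy, 3 of 4 were lower in both knockout libraries than in either WT library, where 21.7% of all tested genes were, and none of the 4 was called. Ulk1, the kinase at the head of the pathway (chromosome 5, 110784488 to 110810097), stood at 23.6 and 19.4 CPM for WT against 16.1 and 17.7 CPM in the knockout. That is a log2 fold change of -0.35 ± 0.15 (SE; edgeR unadjusted p = 0.0455, adjusted p = 0.342). Its paralogue Ulk2 had 61.6 and 54.0 CPM for WT against 48.0 and 48.8 CPM in the knockout (-0.26 ± 0.12, adjusted p = 0.408). For both kinases WT replicate 1 was highest and the knockout libraries lay close together. Becn1, a subunit of the lipid kinase complex that makes the membrane's phosphoinositide, differed little between groups, with 28.9 and 31.2 CPM for WT against 31.0 and 30.0 CPM in the knockout, while Atg14, which directs that complex to the membrane, had a log2 fold change of -0.20.

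Of the genes that supply and mark the growing membrane, Atg9a, a lipid scramblase of small vesicles (chromosome 1, 75180860 to 75192196), had 43.4 and 33.1 CPM for WT against 29.1 and 31.1 CPM in the knockout (-0.34 ± 0.15, unadjusted p = 0.0466, adjusted p = 0.345). WT replicate 1 stood apart from the other 3 libraries, and without it the log2 fold change was -0.13 (adjusted p = 0.915; 0.155 to 0.915 over all 12 alternatives). Of Atg9a's exon bases, 31.8% overlap another gene on the same strand, so its count is uncertain. Wipi1 and Wipi2, which bind the phosphoinositide, had log2 fold changes of -0.11 and 0.17.

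The 6 conjugation genes had log2 fold changes from -0.03 for Atg12 to 0.19 for Atg16l1 and a median of 0.04. Atg7 activates the ubiquitin-like proteins, Atg3 hands ATG8 to its lipid, the products of Atg5, Atg12 and Atg16l1 form the complex that directs this step, and Atg4b trims ATG8 proteins. Atg3, the most abundant of them per kilobase, had 12.9 and 14.1 CPM for WT against 13.4 and 14.6 CPM in the knockout. Its groups overlapped, and only Atg16l1 was higher in both knockout libraries than in both WT libraries. Adjusted p-values of the 6 lay between 0.653 and 0.977.

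The ATG8 genes, whose products coat the membrane, showed larger differences between libraries of one group than between groups. Map1lc3a (chromosome 2, 155276297 to 155278073) had 71.2 and 49.3 CPM for WT against 55.7 and 78.3 CPM in the knockout, so each group held a high and a low library. Its log2 fold change of 0.15 ± 0.22 turned to -0.09 without WT replicate 2 and to -0.11 without knockout replicate 2. Map1lc3b had 132 and 111 CPM for WT against 120 and 108 CPM in the knockout. Gabarap had 66.3 and 76.7 CPM against 76.4 and 69.1 CPM. Gabarapl1 and Gabarapl2 had log2 fold changes of 0.15 and -0.17, and the groups overlapped for each of the 5 genes. Summed over the family, the level was 146 and 126 CPM per kilobase in WT and 132 and 151 in the knockout. Of the 50-base stretches of Gabarapl2 transcripts, 12.2% also occur in transcripts of other genes, and 5.77% of those of Map1lc3b, so part of their reads may map to several places.

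Cargo receptors and mitophagy genes held the widest spread of differences. Sqstm1, which encodes p62, a receptor that links ubiquitin-tagged cargo to ATG8 proteins (chromosome 11, 50199366 to 50210827), had 273 and 240 CPM for WT (257 ± 23.5, SD, n = 2) and 185 and 192 CPM in the knockout (189 ± 5.24). The groups did not overlap and the gap between them was larger than the gap within either. The log2 fold change was -0.44 ± 0.13 (edgeR unadjusted p = 0.00579, adjusted p = 0.131). DESeq2 called it at an adjusted p = 0.0370, and the range over all 12 alternatives was 0.0370 to 0.531.

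Bnip3, a mitochondrial outer membrane receptor for mitophagy that is known for its induction by low oxygen and by FOXO3 (chromosome 7, 138890836 to 138909519), had 80.2 and 71.0 CPM for WT (75.6 ± 6.48) and 141 and 93.5 CPM in the knockout (117 ± 33.8). Both knockout libraries were higher, and knockout replicate 1 stood well above the other 3. The log2 fold change of 0.64 ± 0.19 (95% interval 0.22 to 1.06) had an unadjusted p = 0.00739 and an adjusted p = 0.146. Without knockout replicate 1 it was 0.30 (adjusted p = 0.500). Without knockout replicate 2 it was 0.91 and was called (adjusted p = 0.0183), a fit in which 2.21% of genes were called. DESeq2 gave an adjusted p = 0.0345, and all 12 alternatives ran from 0.0183 to 0.500. Knockout replicate 1 also had the highest summed levels of slow-fibre markers (86.9 CPM against 25.8 to 46.0 in the other libraries), of neutrophil markers (27.2 against 0.663 to 2.90) and of red-cell markers (549 against 243 to 389). Fat-cell markers (4540 CPM against 1093 to 4130) and osteoclast markers (64.6 against 24.4 to 48.9) were highest there too. Of the slow-fibre markers 0 of 5 were called, and of the neutrophil markers 2 of 6 were tested and 0 called. Of the red-cell markers 2 of 5 were called and of the fat-cell markers 9 of 10, beside 2.03% of all tested genes. Of the 7 osteoclast markers 3 were tested and 2 called. The neutrophil genes Ly6g, Ngp and Camp were at 0 in both WT libraries. The part of these cells in the Bnip3 value was not tested. As a further limit, 16.6% of the 50-base stretches of Bnip3 transcripts occur in other genes' transcripts, among them predicted genes.

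Its relative Bnip3l, also a mitophagy receptor, stood at 46.8 and 49.2 CPM for WT against 52.5 and 52.0 CPM in the knockout (0.12 ± 0.12), without overlap between groups, and 20.8% of its 50-base stretches are shared with the pseudogene Bnip3l-ps. Pink1 had 293 and 239 CPM for WT against 217 and 251 CPM in the knockout (-0.19 ± 0.14, adjusted p = 0.639), and its groups overlapped. Optn, a receptor for ubiquitin-tagged mitochondria, had a log2 fold change of 0.09. Within these 5 genes, differences between the libraries of a group were largest for Bnip3 in the knockout (1.51-fold).

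**Figure D4:**
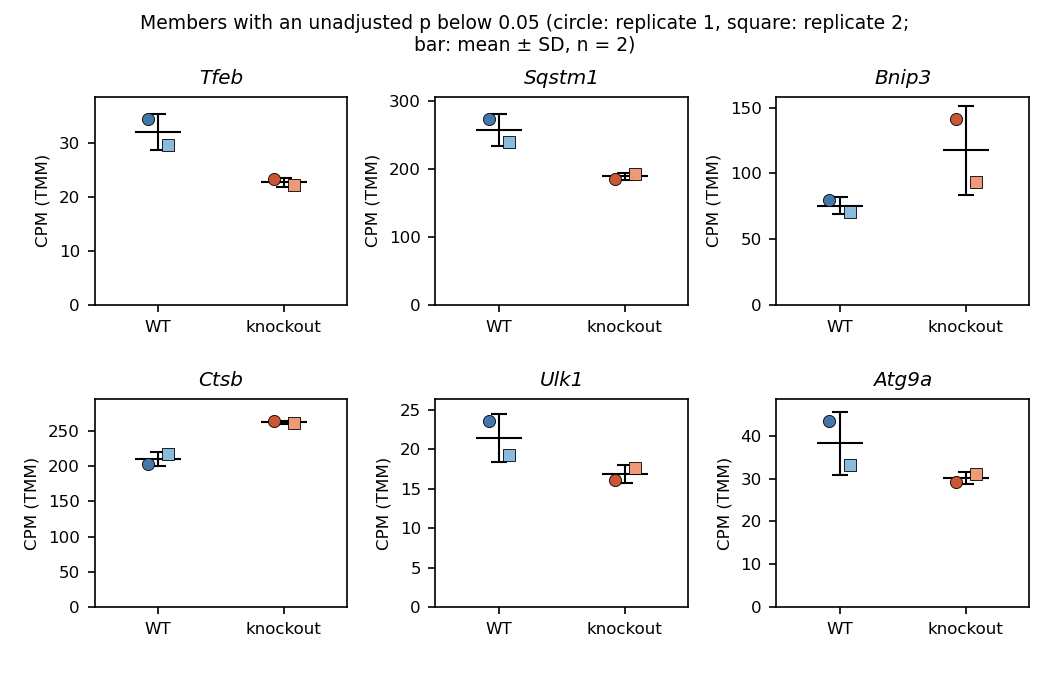
TMM-normalised CPM (y axis, from 0) of the 6 members with an unadjusted p below 0.05, in WT and knockout. Points are libraries (circle replicate 1, square replicate 2), and bars show the mean ± SD of n = 2. The groups do not overlap in any of the 6, beside 44.7% of all tested genes. Choosing genes by p in these same libraries favours such a gap, so it is a description only. Bnip3 has the widest gap between knockout libraries.

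The 2 transcription factor genes differed in opposite directions, and neither was called. Tfeb (chromosome 17, 47737030 to 47792419) had 34.5 and 29.7 CPM for WT (32.1 ± 3.37) and 23.3 and 22.2 CPM in the knockout (22.8 ± 0.826). Both knockout libraries lay below both WT libraries, by more than the difference within a group. The log2 fold change of -0.49 ± 0.14 had the smallest p of any member (unadjusted p = 0.00457, adjusted p = 0.115), and it was not called in any of the 12 alternatives (0.0983 to 0.538). Most markers of tendon cells, endothelial cells and skeletal muscle fibres had negative log2 fold changes, as had the members Tfeb, Sqstm1, Ulk1 and Atg9a. The 5 tendon-cell markers summed to 532 and 437 CPM for WT against 421 and 297 CPM in the knockout, all 5 with a negative log2 fold change (median -0.49) and 4 of them without overlap. The 5 endothelial markers summed to 150 and 172 CPM against 149 and 139 CPM, 4 of them negative (median -0.35). Groups did not overlap for 3 of them lower and 1 higher, beside 21.7% and 23% of all tested genes. The higher one was Kdr, at 22.5 and 23.3 CPM for WT against 26.6 and 29.2 CPM in the knockout (0.28 ± 0.13). The 8 skeletal muscle fibre markers summed to 91546 and 85007 CPM for WT against 79031 and 79664 CPM in the knockout. Of these, 7 were negative and 1 positive (median -0.08), and 3 were lower without overlap. None of the tendon, endothelial or fibre markers was called or at 0 in any library. Their part in the values of the lower members was not tested.

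Tfe3, on the X chromosome, had 5.40 and 8.04 CPM for WT against 7.84 and 10.7 CPM in the knockout (0.44 ± 0.24, adjusted p = 0.472). Its groups overlapped, and its lowest library rested on 57 counts.

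The 8 members with a CLEAR core before or at their start did not share a direction. Their log2 fold changes ran from -0.20 for Atg14 to 0.11 for Atp6v0d1, with 4 below and 4 above 0 and a median of -0.008. The median was -0.09 in the 19 matched members without the core, a group that includes Tfeb, Sqstm1 and Bnip3 and ran from -0.49 to 0.64. The 6 members without a RefSeq promoter are in neither group. They are Map1lc3a, Atg16l1, Becn1, Ctsb, Bnip3l and Atg12, and ran from -0.03 for Atg12 to 0.32 for Ctsb.

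For all 3 genes of the lysosomal membrane the groups overlapped. Lamp1 (chromosome 8, 13159161 to 13175338), whose 4 core matches are printed above, had 196 and 194 CPM for WT against 196 and 182 CPM in the knockout (-0.05 ± 0.12, 95% interval -0.31 to 0.22). The WT libraries and knockout replicate 1 were almost equal. Lamp2, which is needed for fusion with autophagosomes and is lost in Danon disease of muscle and heart, had 85.6 and 75.5 CPM for WT against 98.2 and 75.5 CPM in the knockout (0.11 ± 0.15). Mcoln1 had a log2 fold change of 0.07.

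The cathepsins, proteases of the lysosome lumen, differed among themselves. Ctsb (chromosome 14, 63122462 to 63145923) had 203 and 217 CPM for WT (210 ± 9.85) and 264 and 260 CPM in the knockout (262 ± 2.31), and the knockout libraries were higher by more than the spread in either group. The log2 fold change was 0.32 ± 0.12 (unadjusted p = 0.0241, adjusted p = 0.259). Ctsd had 134 and 111 CPM for WT against 101 and 125 CPM in the knockout (-0.12 ± 0.15) and overlapped between groups, and 34.4% of its exon bases overlap another gene on the same strand. Ctsl, which is known to increase in muscle wasting, had 111 and 100 CPM against 97.7 and 92.2 CPM (-0.15 ± 0.12, adjusted p = 0.653).

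Cathepsin genes are also strongly expressed in macrophages. The 12 macrophage markers summed to 331 and 384 CPM for WT against 390 and 418 CPM in the knockout. All 12 had a positive log2 fold change (median 0.22), 0 were called, and 5 were higher without overlap between groups, beside 23% of all tested genes. Those 5 were C1qa, C1qb, C1qc, Mrc1 and Cd14. None of the defining markers Adgre1, Csf1r and Cd68 was at 0 in any library. Groups overlapped for each of these, with log2 fold changes of 0.23, 0.06 and 0.02. Fat-cell markers were also higher in both knockout libraries, at a median log2 fold change of 1.77. The part of macrophages or of fat cells in the Ctsb value was not tested. The 2 subunit genes of the proton pump that acidifies lysosomes had log2 fold changes of -0.12 for Atp6v1a and 0.11 for Atp6v0d1. Atp6v0d1 had 14.9 and 17.1 CPM for WT against 17.2 and 17.4 CPM in the knockout.

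**Figure D5:**
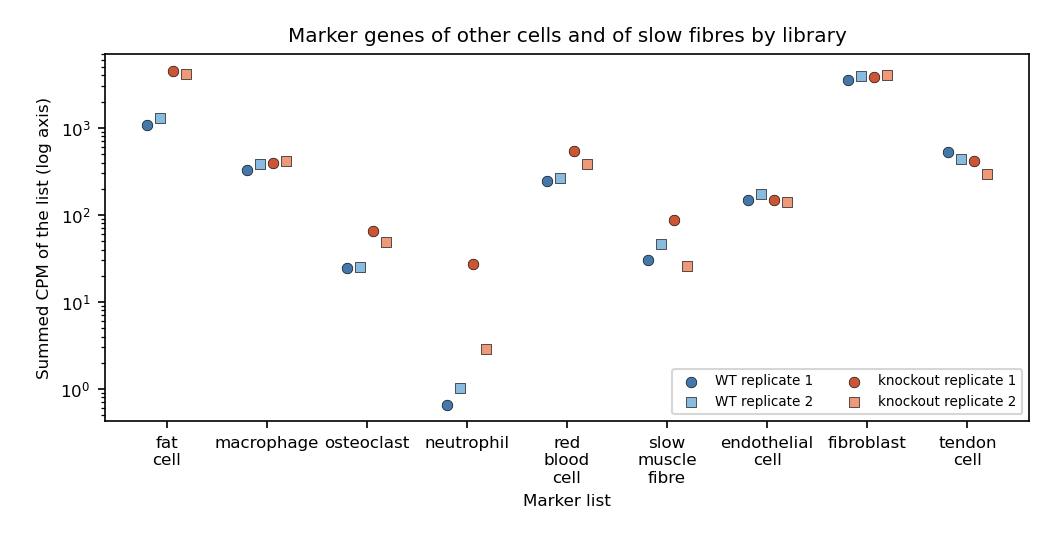
Summed TMM-normalised CPM (y axis, log) of marker genes of other cell types and of slow fibres in the 4 libraries. Fat-cell markers are higher in both knockout libraries (4540 and 4130 CPM against 1093 and 1303 CPM). Knockout replicate 1 is highest for fat-cell, osteoclast, neutrophil, red-cell and slow-fibre markers.

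A wider list of 130 other genes of the pathway, of which 129 were tested, held 2 called genes, both higher in the knockout, beside 2.03% of all genes. Their median log2 fold change was 0.003, and Tfec was the gene not tested. Npc2, which carries cholesterol out of the lysosome lumen (chromosome 12, 84754562 to 84773152), rose from 36.2 and 39.3 CPM in WT to 62.9 and 63.4 CPM in the knockout. That is a log2 fold change of 0.74 ± 0.12 (adjusted p = 0.0121), and it was called in all 12 alternatives (0.00073 to 0.0486). Depp1, a FOXO-regulated gene linked to autophagy (chromosome 6, 116650609 to 116652794), rose from 11.4 and 9.68 CPM to 21.4 and 16.97 CPM (0.88 ± 0.17, adjusted p = 0.0312). Its call was lost without WT replicate 2 (0.76, adjusted p = 0.0994) or knockout replicate 1 (0.69, adjusted p = 0.167), where all 12 alternatives ran from 0.00212 to 0.167. Fat-cell markers, at a median log2 fold change of 1.77, were higher in the same 2 libraries, and their part in Npc2 and Depp1 was not tested. Npc2 is 1 of 13 listed lysosomal membrane and transport genes, and Depp1 1 of 19 tested upstream regulators.

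By group, none of the 9 other initiation genes was called, and the smallest p belonged to Rb1cc1, a scaffold of the ULK1 complex, at 80.7 and 69.4 CPM for WT against 62.2 and 54.4 CPM in the knockout (-0.36 ± 0.13, adjusted p = 0.242). Among 12 elongation genes, Vmp1, a scramblase of the endoplasmic reticulum, came first at 21.9 and 24.6 CPM against 38.3 and 29.1 CPM (0.54 ± 0.16, adjusted p = 0.141). Stbd1, a glycogen-binding receptor, led the 14 receptor and mitophagy genes at 22.7 and 29.4 CPM against 16.7 and 19.2 CPM (-0.55 ± 0.16, adjusted p = 0.143). None of these 3 was called. Each had groups that did not overlap, which choosing by smallest p favours, beside 44.7% of all tested genes.

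Downstream of the autophagosome, Vps33a, a subunit of the tethering complex for fusion, had the smallest p of 14 fusion genes, at 18.4 and 15.1 CPM against 20.4 and 23.96 CPM (0.40 ± 0.16, adjusted p = 0.279). The 33 lysosomal hydrolases held 24 positive and 9 negative log2 fold changes with a median of 0.12, and 0 were called. Groups did not overlap for 14 of them higher and 2 lower, beside 23% and 21.7% of all tested genes. Galns, an enzyme of keratan sulfate breakdown, led them at 0.663 and 1.09 CPM for WT against 2.04 and 2.39 CPM in the knockout (1.28 ± 0.40, adjusted p = 0.164). Tcirg1, a proton pump subunit abundant in osteoclasts and immune cells, led 15 pump genes at 4.74 and 6.48 CPM against 8.79 and 8.36 CPM (0.61 ± 0.21, adjusted p = 0.212). Of the 7 osteoclast markers, 3 were tested and 2, Acp5 and Mmp9, were called higher. The list's summed level was 24.4 and 25.3 CPM for WT against 64.6 and 48.9 CPM in the knockout. Acp5 alone had 6.73 and 7.33 CPM against 35.7 and 30.4 CPM. Ctsk, also tested, overlapped between groups at 13.8 and 14.7 CPM against 18.6 and 11.9 CPM. Calcr, not tested, was lower in the knockout without overlap, on 10 and 10 reads against 8 and 5. Ocstamp and Atp6v0d2 were at 0 in WT replicate 1 and knockout replicate 2. The part of osteoclasts in the Tcirg1 value was not tested.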

How the data were processed

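The authors deposited raw counts of reads per Ensembl gene, 1 column for each of 4 libraries (2 WT, 2 knockout). Trimmomatic, STAR and DESeq2 with GRCm38 (mm10) are named, per the submitters' processing notes; for tool versions, the strand setting, multiply mapped reads and the annotation release, the choice was not given in the sources used here. Of 55573 gene IDs, 55480 matched GENCODE M21, from which symbols, coordinates and exon lengths were taken. Of genes lying wholly under other genes' exons, 1 of 712 had a count on the same strand and 119 of 457 on the opposite strand, so counting used strand.

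Genes were filtered with filterByExpr (minimum count 10, minimum total 15), scaled by TMM and fitted with genotype alone by edgeR 4.0.16 (glmQLFit with robust estimation and bias-adjusted deviances, glmQLFTest) in R 4.3.3. P-values were adjusted over all 13076 genes. SEs come from the F statistic and intervals are 95%. With 2 libraries against 2, an exact permutation test of one value cannot go below p = 0.333. The fit was tested on simulated data. DESeq2 1.42.0 and other settings were alternatives. CPM divided by 1000 bases of merged exons gives levels per kilobase. Promoters are RefSeq's.

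Members and lists were chosen with earlier results of these data known, as was the search for motifs. Values in every library are given for members with an adjusted or unadjusted p below 0.05 and for the most abundant member of each role, and also for further members chosen after their values were seen; in the other lists, called genes and the gene with the smallest p are named.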

Additional observations from a re-analysis of the deposited data

How the results depend on the processing

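Of 12 alternatives, 2 were added after the data were seen (older quasi-likelihood statistics, and a fit without X-linked and Y-linked genes). The count of called genes was 265 and stayed within 1.5 times of it except for 476 with no filter on low counts, where 26657 genes were tested. Leaving out 1 library gave 216 to 332 called genes, 0 to 1 called members (Bnip3, without knockout replicate 2) and 1 to 2 called genes of the wider pathway list. DESeq2 called 2 members, and the other 10 alternatives called 0. The members' median log2 fold change lay between -0.0892 and -0.0007 with 1 library left out, and between 0.01 and 0.03 in the other alternatives. With 1 library left out, members close to 0 changed sign: Atg3 ranged from -0.0175 to 0.110, Ctsd from -0.271 to 0.0310, Lamp1 from -0.103 to 0.00789 and Map1lc3a from -0.108 to 0.440. Atg3 was negative without WT replicate 1 or knockout replicate 2 (-0.0144), Ctsd positive without WT replicate 1 or knockout replicate 1 (0.0251), Lamp1 positive without knockout replicate 2, and Map1lc3a negative without WT replicate 2 (-0.0936) or knockout replicate 2. Each was uncalled in every setting. The replicate number as a block gave 346 called genes and 0 called members, with Bnip3 at an adjusted p = 0.0524; same-numbered libraries' deviations correlated at 0.039 over genes, so the numbers were not taken as pairs. Depth limits Atg7 and Tfe3 most, with 53 and 57 counts in WT replicate 1.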
